A study of Mus musculus with 10 samples.

Results

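H/ACA box snoRNAs were measured in the small RNA libraries through their fragments. The members are the GENCODE vM21 genes of type snoRNA whose symbol starts with Snora, 42 gene records with 40 symbols among the 6108 short RNA genes of the annotation, with annotated lengths of 121 to 205 nt. Snora73a and Snora73b share part of their reads and were counted as 1 feature, and Snora16a and Snora43 each have 2 records, which leaves 39 features. A read counted as Snora when it was at least 18 nt long, matched a Snora transcript exactly in the sense direction and matched no Mir hairpin. In the 10 libraries together, 29008 of 103197012 reads, 0.0281%, met this rule, with 447 distinct sequences in 36 features. Snora23, Snora35 and Snora47 had 0 reads in all 10 libraries.

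H/ACA box snoRNAs are nuclear RNAs made of a pair of hairpins joined by a hinge called box H, with the trinucleotide ACA close to the 3′ end. With the proteins dyskerin, Nop10, Nhp2 and Gar1 they direct the change of chosen uridines of ribosomal RNA into pseudouridine, while a few, such as U17, act in the cutting of the ribosomal RNA precursor. Most are excised from introns of host genes, and some are cut further into stable pieces, of which a few load into Argonaute proteins like miRNAs.

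The study asked whether mouse primordial germ cell-like cells (mPGCLCs), which form in embryoid bodies from embryonic stem cells, carry piRNAs. Day 6 embryoid bodies of male lines were sorted, and RNA under 200 nt was sequenced in single reads from 5 groups of 2 replicates. The groups were mPGCLC and non-PGCLC cells of the reporter-free line E14 (129/Ola), mPGCLC and non-PGCLC cells of BG5 (C57BL/6J/DBA/129, Blimp1-GFP reporter), and non-PGCLC cells of SGET (B6CBA/129, Stella-GFP and Esg1-tdTomato reporters). Per the study's methods, E14 mPGCLCs were sorted as Ssea1+ and Cd61+ and BG5 mPGCLCs as Ssea1+ and Blimp1-GFP+, whereas the sample labels describe a single gate on the SGET reporters. The non-PGCLC cells are the surrounding cells of the embryoid bodies and so a mixture, line and strain cannot be told apart, and mPGCLCs of SGET and germ cells from embryos were not analysed here. The design text calls the replicates biological duplicates but does not say that they came from separate differentiations, so p-values measure the spread between these samples.

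The libraries held 7421061 to 14444567 reads and 155870 to 301224 distinct sequences. PCR copies were not removed, so intervals and detection floors cover counting error only, and 3 reads corresponded to 0.208 to 0.404 reads per 1000000 (RPM) of a library's total. The labelled cell types were checked with 8 lists of miRNA markers. The miR-290 cluster of pluripotent and early germ cells took 15823 to 54506 RPM in the 4 mPGCLC libraries, 24394 to 33092 in E14 non-PGCLC, 39919 to 46471 in SGET non-PGCLC and 2089 to 3027 in BG5 non-PGCLC and was thus high in E14 and SGET non-PGCLC cells as well. Mesenchymal miRNAs (Mir199a, Mir199b, Mir214) took 6.889 to 142.8 RPM in mPGCLC libraries and 373.3 to 17356 RPM in non-PGCLC libraries, and erythroid miRNAs were at 0 in all 10. The miR-302 cluster and Mir367 of pluripotent and epiblast cells took 4612 and 4897 RPM in BG5 mPGCLC against 349.5 and 381.1 in BG5 non-PGCLC and 73.55 to 409.4 in the other libraries. Neural miRNAs took 214.8 and 244.5 RPM in BG5 mPGCLC against 42.31 and 53.79 in BG5 non-PGCLC, 145.4 to 205.6 in the E14 libraries and 0 and 109.7 in SGET non-PGCLC. The endothelial, muscle and liver lists reached at most 131.2, 53.5 and 58.43 RPM in any library. Their part in the Snora results was not tested.

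The sequences that carried most reads came from the ends of the snoRNAs. Snora3 (in Rpl27a, chr7:109520120-109520251, plus strand) and Snora64 (U64, in Rps2, chr17:24720772-24720905, plus strand) gave mainly 5′-end fragments. They are shown 5′ to 3′ in GRCm38 with the most-read fragment in capitals, which is nt 1 to 23 in Snora3 (618 reads in 3 libraries) and nt 1 to 21 in Snora64 (269 reads in 2 libraries).
Snora3: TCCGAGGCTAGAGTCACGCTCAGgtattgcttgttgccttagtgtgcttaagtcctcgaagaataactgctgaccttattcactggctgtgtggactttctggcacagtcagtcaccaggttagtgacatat
Snora64: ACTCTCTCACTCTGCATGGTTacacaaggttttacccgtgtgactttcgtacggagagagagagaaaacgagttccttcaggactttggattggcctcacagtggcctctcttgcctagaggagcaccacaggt

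Snora57 (outside longer genes of its strand, chr19:8888538-8888685, minus strand), Snora41 (in Eef1b2, chr1:63179004-63179135, plus strand), Snora70 (U70, in Rpl10, chrX:74272484-74272620, plus strand) and Snora69 (in Rpl39, chrX:37082912-37083042, minus strand) gave mainly 3′-end fragments. The capitals again mark the most-read fragment, nt 122 to 148 in Snora57 (589 reads in 2 libraries), nt 108 to 129 in Snora41 (688 reads in 4 libraries), nt 118 to 137 in Snora70 (600 reads in 3 libraries) and nt 109 to 131 in Snora69 (564 reads in 2 libraries). Each capital run holds the ACA box, which stands 3 nt before the annotated 3′ end in all 4.
Snora57: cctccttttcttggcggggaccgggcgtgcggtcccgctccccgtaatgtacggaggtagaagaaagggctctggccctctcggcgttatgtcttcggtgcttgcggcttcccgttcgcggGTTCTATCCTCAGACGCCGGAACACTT
Snora41: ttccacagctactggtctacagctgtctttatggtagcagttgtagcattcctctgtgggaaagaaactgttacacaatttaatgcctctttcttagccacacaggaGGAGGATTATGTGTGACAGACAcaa
Snora70: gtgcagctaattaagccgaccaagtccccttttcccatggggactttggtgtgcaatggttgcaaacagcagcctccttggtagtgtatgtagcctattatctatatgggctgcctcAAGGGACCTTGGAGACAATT
Snora69: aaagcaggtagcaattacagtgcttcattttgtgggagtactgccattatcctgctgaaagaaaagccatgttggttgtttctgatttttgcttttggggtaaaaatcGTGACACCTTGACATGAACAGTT

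Snora61 (in Snhg12, chr4:132310240-132310369, plus strand), the member with the most reads, gave fragments of both ends, shown in capitals as nt 1 to 18 (141 reads in 2 libraries) and nt 106 to 130 (631 reads in 2 libraries). The 43-nt read of Snora68 from nt 2 to 44 was present in all 10 libraries, with 345 reads. A read of 43 nt is one in which no adapter was found, so it comes from an RNA of at least that length.
Snora61: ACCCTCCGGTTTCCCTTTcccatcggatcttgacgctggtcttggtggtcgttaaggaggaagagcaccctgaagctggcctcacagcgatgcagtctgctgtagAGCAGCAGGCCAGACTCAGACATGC

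The reads were spread over many members with no dominant one. Snora61 took 8.46% of all Snora reads, the 8 leading features took 52.5% and 19 features took 91.4%. By mean RPM over the 5 group means the order began with Snora61 (22.2 RPM), Snora57 (21.5), Snora62 (20.8), Snora3 (20.2), Snora7a (17.3), Snora64 (17.2), Snora44 (17.1) and Snora81 (16.5). These neighbours lay much closer together than the libraries of any one of them. Per 100 nt of annotated length, which is the scale for comparing genes, Snora61 led with a level of 17.05 RPM per 100 nt, followed by Snora3 with 15.3 and Snora57 with 14.5. The long Snora73a/Snora73b (205 nt) stood at 9.43 RPM and at 4.60 RPM per 100 nt. At the low end, Snora36b (4.86 RPM) was the last of the 20 leading features, Snora74a (U19) had 3.06 RPM, Snora65 (U65) had 1.75 RPM, and 9 features from Snora19 down had under 1 RPM. Snora63 (E3) is not among the annotated symbols.

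**Figure D1:**
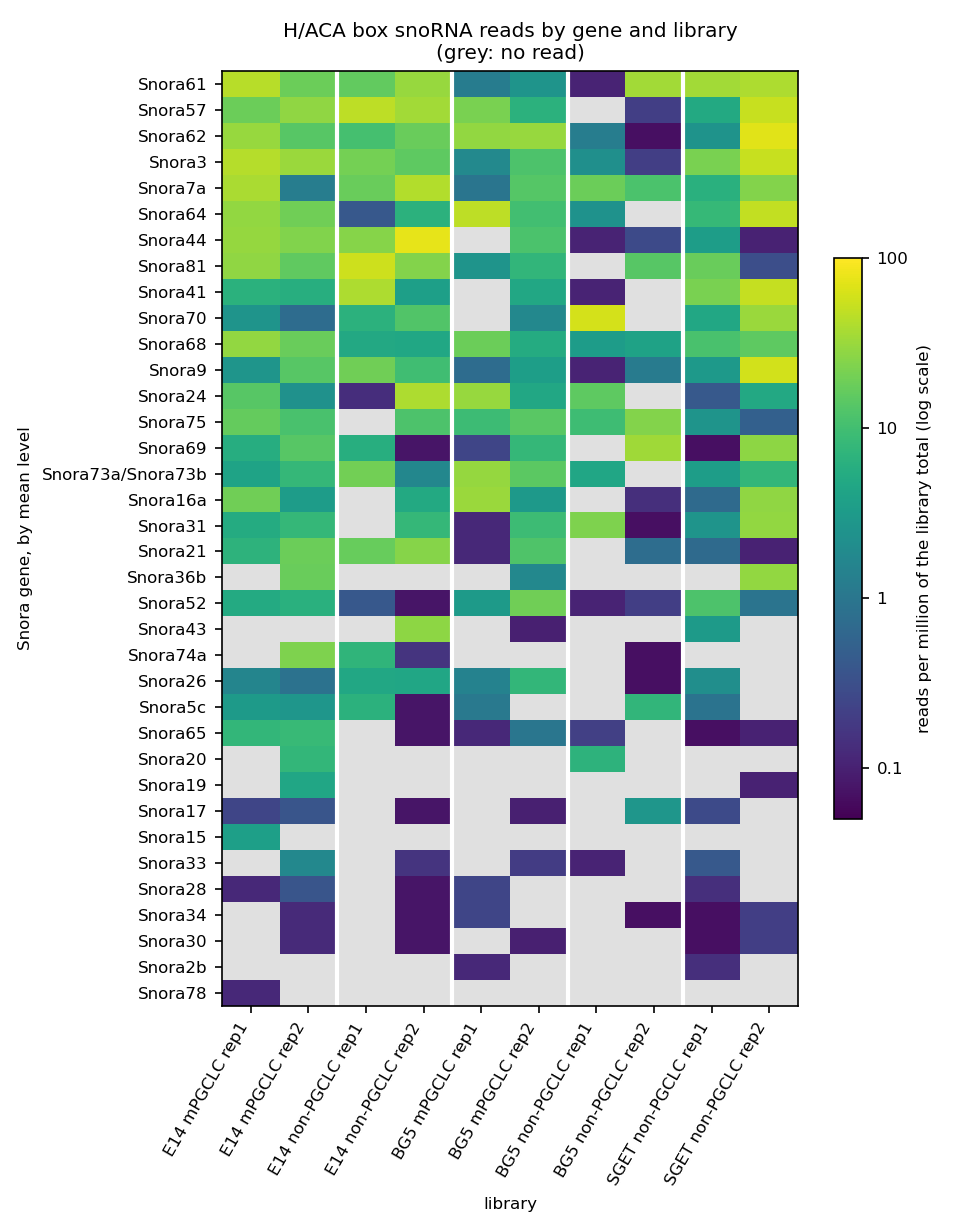
Reads per 1000000 of the library total (colour, log scale) for each Snora gene with reads (rows, by mean level) in each of the 10 libraries (columns), with grey where a library had no read. The leading rows change from high to low between replicates of a group, and the number of features with reads was 18 to 32 per library.

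The same gene was often high in one library and near 0 in its replicate. Snora61 had 44.4 and 17.9 RPM in E14 mPGCLC, 15.9 and 31.01 in E14 non-PGCLC, 1.21 and 2.54 in BG5 mPGCLC, 0.106 and 34.8 in BG5 non-PGCLC, and 35.1 and 38.9 in SGET non-PGCLC. It was low in both BG5 mPGCLC libraries and in 1 BG5 non-PGCLC library, so the BG5 groups overlapped. Snora70 had 2.54 and 0.746 RPM in E14 mPGCLC, 6.60 and 12.7 in E14 non-PGCLC, 0 and 1.76 in BG5 mPGCLC, 61.9 and 0 in BG5 non-PGCLC, and 4.79 and 32.2 in SGET non-PGCLC. Its highest and one of its lowest values were thus replicates of a single group. Of the 117 feature and group pairs with more than 3 reads in a replicate, the other replicate had 3 or fewer in 46, 39.3%. Where both had more than 3, the median fold between replicates was 2.38, and 43 of 71 pairs differed by more than 2-fold.

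The other members among the 20 leading features ranged as widely. Over the 10 libraries Snora81 ran from 0 to 55.5 RPM, Snora9 from 0.106 to 58.7, Snora24 from 0 to 38.9, Snora69 from 0 to 33.5, Snora75 from 0 to 24.7, Snora31 from 0 to 29.5 and Snora21 from 0 to 24.8. Snora7a was never at 0, with 0.970 to 41.4 RPM.

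The leading member changed from library to library. It was Snora61 in E14 mPGCLC replicate 1 with 11.2% of the library's Snora reads, Snora3 in replicate 2 with 9.81%, Snora64 in BG5 mPGCLC replicate 1 with 20.2% and Snora62 in replicate 2 with 14.9%. In E14 non-PGCLC it was Snora81 with 17.2% and Snora44 with 19.05%, in BG5 non-PGCLC Snora70 with 41.5% and Snora61 with 25.6%, and in SGET non-PGCLC Snora61 with 20.6% and Snora62 with 12.3%. The 5 leading features held 38.5% to 49.8% of the Snora reads in the 2 E14 mPGCLC libraries, BG5 mPGCLC replicate 2 and SGET non-PGCLC replicate 2, and 85.7% and 87.1% in the BG5 non-PGCLC libraries. BG5 non-PGCLC libraries also had the fewest Snora reads, 1409 and 1963 in replicates 1 and 2, together with BG5 mPGCLC replicate 1 at 1921.

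Within a library a gene was mostly represented by a single sequence. Of the 181 feature and library pairs with 10 or more reads, 136 (75.1%) had 1 sequence with at least as many reads as all the others together, and the median share of the leading sequence was 72.2%. Snora57 shows the pattern. Its nt 122 to 148 fragment had 522 reads in SGET non-PGCLC replicate 2, 67 in BG5 mPGCLC replicate 2 and 0 in the other libraries, while a fragment 19 nt long ending at the same base had 318 reads in E14 non-PGCLC replicate 2, 50 in E14 mPGCLC replicate 2 and 0 elsewhere. Both end at the annotated last base and differ in the 5′ end.

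Few Snora sequences recurred. Of the 447 distinct sequences, 312 (69.8%) were found in 1 library and 23 in 5 or more, against 55.6% in 1 library for the C/D box snoRNAs (Snord) and 42.5% for miRNAs. The median number of reads of a sequence in a library was 10 for Snora, 23 for Snord and 137 for Mir, and the part of read number in this order was not tested. Of the 347 5′ ends, 239 were in 1 library and 7 in all 10, namely nt 2 of Snora62 (1874 reads), nt 1 of Snora3 (1511), nt 1 of Snora9 (441), nt 1 of Snora61 (396), nt 2 and nt 1 of Snora68 (384 and 110) and nt 1 of Snora7a (239). All 7 are at the 5′ end of the snoRNA. Their presence in all 10 libraries rests in part on 43-nt reads. All 110 reads at nt 1 of Snora68 were 43 nt long, as was the only read at nt 1 of Snora61 in BG5 non-PGCLC replicate 1. In the long reads the recurrence was higher, and all 4 sequences present in 10 libraries were 43 nt long, from Snora68, Snora9 and Snora61.

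**Figure D2:**
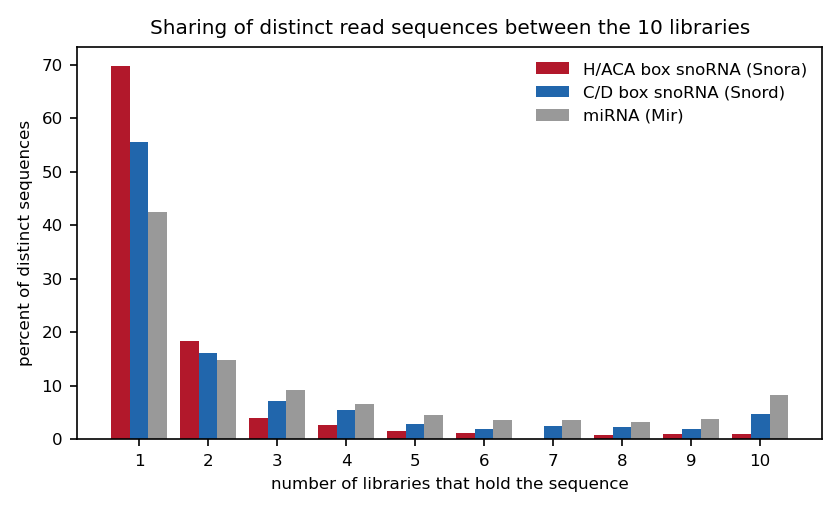
Percent of distinct read sequences (y axis) by the number of the 10 libraries that hold them (x axis), for Snora, Snord and miRNA hairpins. For Snora, 69.8% of sequences lay in 1 library, against 55.6% for Snord and 42.5% for Mir.

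Snora reads were short. Per the study's methods, a size band was cut from a gel after PCR, which limits the lengths that could be seen. Reads of 20 to 24 nt made up 37.4% of all Snora reads and reads of 25 to 30 nt 31.1%, followed by 31 to 40 nt with 13.6%, 18 to 19 nt with 13.5% and 43 nt with 4.52%. The most frequent length was 23 nt with 10.5%, and 27 nt had 9.26%. This lead rested on SGET non-PGCLC replicate 2, with 111.5 RPM of 23 nt against 11.48 to 33.51 RPM in the other libraries. When each distinct sequence was counted 1 time per library, the 43-nt class was the largest with 39.4%, and the 20 to 24-nt class had 16.2%. Long pieces were thus diverse with few reads each, and the short classes rested on few sequences with many reads. Over the libraries the 20 to 24-nt share ranged from 21.0% in E14 non-PGCLC replicate 1 to 60.2% in BG5 non-PGCLC replicate 1. Of Snord reads, 27.1% were 43 nt long, and the 43-nt share was lower in Snora than in Snord in 10 of 10 libraries, with medians of 4.06% and 28.8%.

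**Figure D3:**
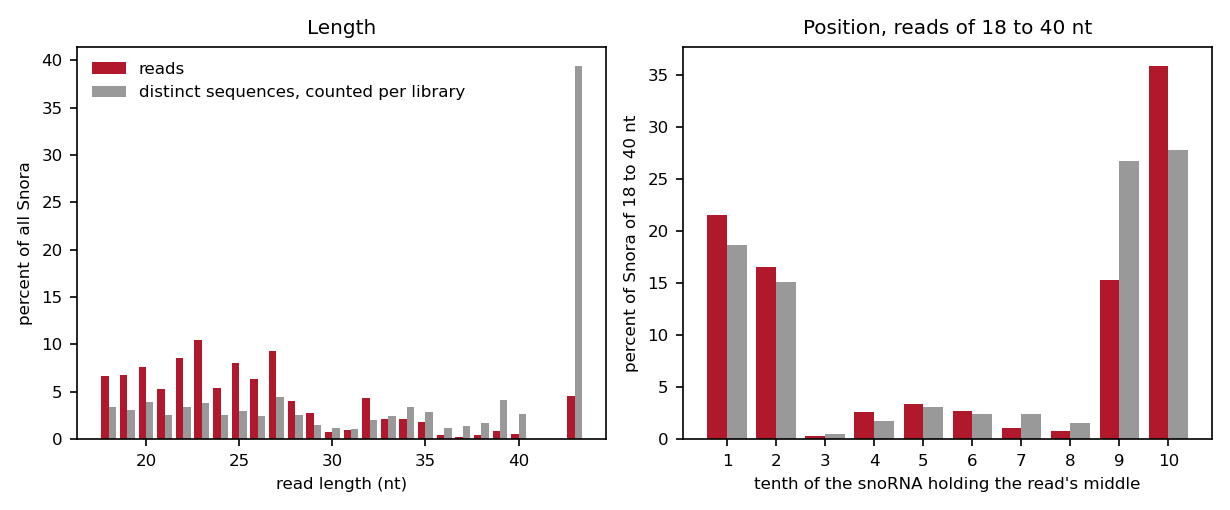
Left, percent of Snora (y axis) by read length in nt (x axis), and right, percent of 18 to 40-nt Snora (y axis) by the position of the middle of the read in 10 equal bins of the snoRNA from 5′ to 3′ (x axis), with red bars for reads and grey bars for distinct sequences counted per library. Reads peak at 23 nt through SGET non-PGCLC replicate 2, distinct sequences peak at 43 nt, and the reads lie at both ends of the snoRNA.

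Fragments came from the ends. Among reads of 18 to 40 nt, 48.7% ended within 3 nt of the annotated 3′ end and 36.5% started within 3 nt of the 5′ end, while internal reads nearer the 5′ or the 3′ end made up 7.92% and 6.95%. Counted as distinct sequences per library, the 3′-end share was 52.2% and the 5′-end share 32.4%, which is the same order. With the 43-nt reads included, the reads kept this order, at 46.5% for the 3′ end and 38.6% for the 5′ end, but distinct sequences per library turned it, at 32.2% and 39.4%. By library the 3′-end share ranged from 29.9% to 79.0% and the 5′-end share from 17.2% to 52.7%. Both extremes of the 3′-end share were non-PGCLC libraries, E14 replicate 2 and BG5 replicate 1. The 5′-end share exceeded the 3′-end share in E14 mPGCLC replicate 1, at 52.7% against 40.99%, and in E14 non-PGCLC replicate 2, at 47.2% against 29.9%.

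Reads that ran past either annotated end had no exact match and were not counted, so only ends inside the annotation could be compared. Within that limit, the 2 kinds of end fragment differed in how exact their ends were. Of the 10100 reads of the 5′ kind, 64.8% began at the first annotated base and 31.8% at the second, with 94 sequences from 18 features and a median length of 25 nt. Of the 13480 reads of the 3′ kind, 93.0% stopped exactly at the last annotated base, with 161 sequences from 24 features and a median length of 23 nt. With each sequence counted 1 time per library the medians were 26 nt for the 5′ kind and 29 nt for the 3′ kind, so the order of the lengths turned. In 12679 of these reads, 94.1%, the read's last 8 nt held the ACA box. The first base was A in 30.5%, T in 23.6%, C in 23.4% and G in 22.5% of 18 to 40-nt reads, so no strong bias toward 5′-U, the base favoured by piRNAs, was present.

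Members differed in the end they left behind. The 5′ end gave 98.7% of Snora62 reads, 96.0% of Snora31, 83.8% of Snora64, 77.4% of Snora3 and 70.6% of Snora44. The 3′ end gave 97.1% of Snora69 reads, 91.4% of Snora21, 82.8% of Snora57, 82.4% of Snora41, 75.5% of Snora73a/Snora73b, 74.2% of Snora70 and 70.3% of Snora61. Snora68 was divided, with 57.3% at the 5′ end and 39.5% at the 3′ end.

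The annotated transcripts held the boxes of the family. ACA lay in the last 8 nt of 40 of 42 Snora transcripts, all but Snora44 and Snora81, and exactly 3 nt before the end in 35. On the same strand and window ACA was found in 7.14% of 98 Snord transcripts and in 20.6% of all 6109 short RNA transcripts. The box H letters ANANNA, where N is any base, were found in the middle 30% of 39 of 42 Snora transcripts and of 54.7% of all short RNA transcripts, so this motif alone separates the classes poorly. The opposite strand was not searched, since box positions are defined on the RNA. A search of the reads found 0 antisense Snora reads in each of the 10 libraries, which allows up to 0.208 to 0.404 RPM per library.

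Fragments like a miRNA were sought as a 5′ start that, with the positions 1 nt either side, held at least as many of a feature's 20 to 24-nt reads as all other starts, with at least 100 such reads and reads in at least 8 libraries. Of 24 features with reads of this length, 20 had 100 or more in a window, 19 of these passed the share, and 1 passed the number of libraries. That one was the 5′ end of Snora3. All 1362 of its 20 to 24-nt reads started at nt 1, in 5 sequences, and they made up 69.6% of Snora3 reads. They numbered 232 and 203 in E14 mPGCLC, 149 and 74 in E14 non-PGCLC, 0 and 80 in BG5 mPGCLC, 21 and 0 in BG5 non-PGCLC, and 92 and 511 in SGET non-PGCLC, with a mean of 14.8 RPM. The fragment was thus above 70 reads in 7 libraries and absent from 1 replicate of each BG5 group.

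Several windows that failed the number of libraries held many reads, unevenly spread. Others were near the limit of 100 reads, such as that of Snora31 with 100 reads in 1 library. The window of Snora64, starts at nt 1 and nt 2, had 902 reads in 5 libraries, of which 477 were in SGET non-PGCLC replicate 2 and 225 in BG5 mPGCLC replicate 1. The nt 2 start made up 236 of the 477. The nt 108 start of Snora41 had 887 reads in 4 libraries, 499 of them in SGET non-PGCLC replicate 2. The window of Snora62, starts at nt 2 and nt 3, had 545 reads in 5 libraries, 4 mPGCLC libraries with 207, 29, 125 and 172 reads and BG5 non-PGCLC replicate 1 with 12. The nt 3 start made up 28 of the 172 in BG5 mPGCLC replicate 2. These counts describe length and 5′ end only, and binding to Argonaute was not measured here.

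Annotated miRNA hairpins overlap 2 members in the genome, and their reads were kept out of the Snora counts. Mir664 (chr1:185242975-185243043, plus strand) lies in the 3′ portion of Snora36b (in Rab3gap2, chr1:185242907-185243038, plus strand) and had 805 reads in 4 libraries. Mir1291 (chr15:98519762-98519878, minus strand) covers the 5′ portion of Snora34 (in Kansl2, chr15:98519716-98519853, minus strand) and had 167 reads shared with it, present in all 10 libraries. Mature miRNAs from RefSeq (GRCm38.p6) are shown with the seed, bases 2 to 8, in capitals. The reads that began like them numbered 643 for miR-664-5p, 161 for miR-664-3p and 159 for miR-1291, and the seeds are all different.
mmu-miR-664-5p: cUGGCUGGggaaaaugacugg
mmu-miR-664-3p: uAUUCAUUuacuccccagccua
mmu-miR-1291: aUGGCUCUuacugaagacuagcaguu

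All 446 reads counted as Snora36b lay over the miR-664-5p arm. They started at nt 68, 1 nt before the first base of the annotated hairpin, and so had no exact match to the hairpin. Their most-read form, in capitals below, had 287 reads, all in SGET non-PGCLC replicate 2, and Snora36b stood at 29.4 RPM there, 17.5 in E14 mPGCLC replicate 2, 1.76 in BG5 mPGCLC replicate 2 and 0 in the other 7 libraries. Snora34 itself kept 8 reads. In its sequence the capitals mark the 43-nt read, 106 reads in 10 libraries, that lay within the Mir1291 hairpin, and 114 of the 167 shared reads were 43 nt long and so longer than a mature miRNA. Another hairpin, Mir3084-1 (chr19:24942235-24942303, minus strand), lies apart from Snora19 but shares sequence with it, with 174 reads in 3 libraries, against 37 reads counted as Snora19.
Snora36b: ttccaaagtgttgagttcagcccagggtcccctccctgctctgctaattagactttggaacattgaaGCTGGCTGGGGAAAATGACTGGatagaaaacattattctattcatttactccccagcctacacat
Snora34: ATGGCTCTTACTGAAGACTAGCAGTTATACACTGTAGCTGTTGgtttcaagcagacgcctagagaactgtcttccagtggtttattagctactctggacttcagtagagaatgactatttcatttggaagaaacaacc

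Snora73a and Snora73b (U17, both in introns of Rcc1, chr4:132352775-132352979 and chr4:132352322-132352526, minus strand), the members that act in ribosomal RNA cutting, differ at 7 of 205 bases. Of their 836 reads, 462 (55.3%) matched Snora73a alone, 174 (20.8%) Snora73b alone and 200 (23.9%) both. Reads of the last 39 nt told the copies apart through their last 3 bases, in capitals below, and both forms had 78 reads, in 6 libraries for Snora73a and 8 for Snora73b. Both copies were therefore present as fragments. The summed level of the pair was 4.11 and 7.83 RPM in E14 mPGCLC, 19.9 and 1.71 in E14 non-PGCLC, 30.3 and 14.8 in BG5 mPGCLC, 4.44 and 0 in BG5 non-PGCLC, and 3.47 and 7.78 in SGET non-PGCLC. The replicates did not overlap in BG5, where mPGCLC was higher, and overlapped in E14.
Snora73a: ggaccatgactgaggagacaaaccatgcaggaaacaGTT
Snora73b: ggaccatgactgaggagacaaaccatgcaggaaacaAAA

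Ribosomal protein genes were the kind of host with the most reads over all libraries. The median level of a member was close, 11.42 RPM in ribosomal protein genes and 11.16 RPM in snoRNA host genes. The 11 members in ribosomal protein genes gave 41.95% of Snora reads, 25.9% to 60.04% by library, with Snora62, Snora3, Snora7a and Snora64 in front. The 7 in snoRNA host genes (Snhg genes and Dancr) gave 25.95%, 10.5% to 41.3% by library, and 3 of them, Snora61, Snora44 and Snora16a, share Snhg12. Members in other genes, among them Snora81 in the translation initiation helicase gene Eif4a2, Snora75 in the nucleolin gene Ncl and Snora41 in the elongation factor gene Eef1b2, gave 23.6%. The 3 outside longer genes of their strand, Snora57, Snora43 and Snora17, gave 8.51%. By annotation 16 features were intronic, and 20 were intronic in some host transcripts and exonic in others. Reads found in another annotated transcript as well made up 23.0% of Snora reads, with 86.5% of Snora57, 89.9% of Snora81, 92.4% of Snora21 and 74.2% of Snora70.

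The summed Snora level was then compared over the groups, as a description without a test. It was 395.7 and 329.3 RPM in E14 mPGCLC and 323.8 and 401.2 in E14 non-PGCLC, with means of 362.5 ± 46.9 and 362.5 ± 54.7 (SD, n = 2). In BG5 it was 232.8 and 206.6 in mPGCLC and 149.1 and 135.9 in non-PGCLC, with means of 219.7 ± 18.5 and 142.5 ± 9.30 (SD, n = 2). SGET non-PGCLC had 170.4 and 577.5 RPM, the widest spread of any group and the highest single library. The E14 cell types overlapped, the BG5 cell types did not, and both BG5 groups lay below both E14 groups. In bulk RNA, fewer cells of a type and less RNA per cell cannot be told apart. Fragments also need not follow the amount of full-length snoRNA, which is longer than these reads.

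The order of the libraries depended on how molecules were counted. As distinct Snora sequences per 1000000 distinct sequences, E14 mPGCLC had 579 and 673.4, E14 non-PGCLC 310.5 and 378.9, BG5 mPGCLC 325 and 350.9, BG5 non-PGCLC 160.1 and 128, and SGET non-PGCLC 308.7 and 391.4. On this scale mPGCLC was above non-PGCLC without overlap in both lines. With Snora reads of 20 nt or longer per 1000000 of all reads, the mPGCLC minus non-PGCLC difference in BG5 fell from 77.2 to 29.3 RPM, 166.5 and 174.9 against 147 and 135.8, and in E14 it was -0.883 RPM. With Snora reads of 20 nt or longer per 1000000 reads of 20 nt or longer, it was -138.6 in E14, with overlapping replicates, and 167.8 in BG5. The share of Snora reads of 18 to 19 nt was 28.5% and 15.3% in BG5 mPGCLC and 1.35% and 0.0509% in BG5 non-PGCLC. Reads of 15 to 19 nt took 42.8% to 67.3% of a library. Among 43-nt reads, SGET non-PGCLC was highest with 21.6 and 26.4 RPM against 1.69 to 14.4 RPM in the other 8 libraries, and its libraries also had the highest shares of 43-nt reads among all reads, 0.910% and 0.763%.

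**Figure D4:**
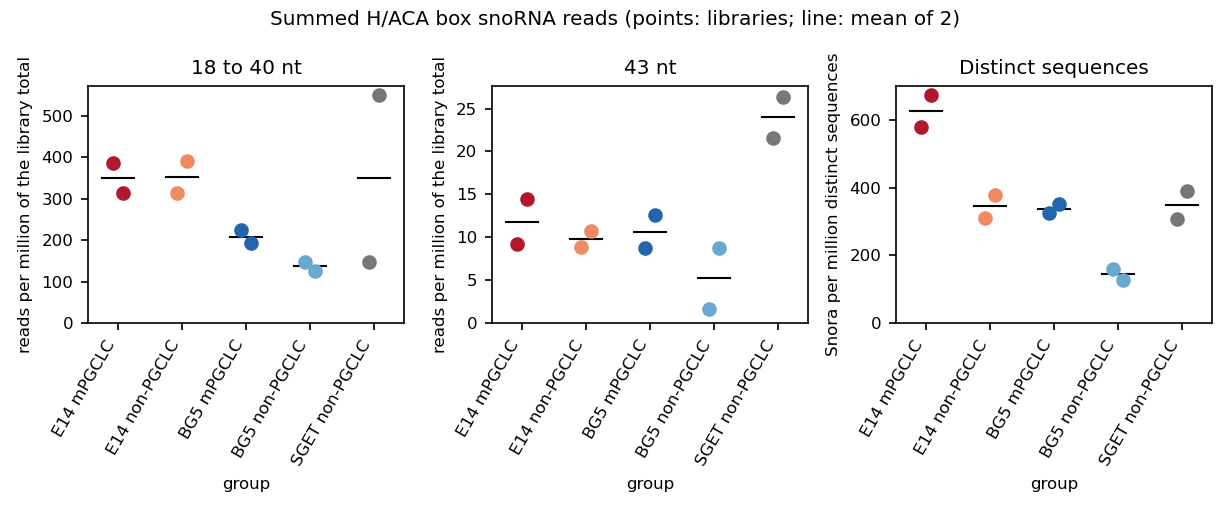
Summed Snora by group (x axis), as reads per 1000000 of the library total for 18 to 40-nt reads (left) and 43-nt reads (middle) and as Snora per 1000000 distinct sequences (right), with a point per library and a line at the mean of 2. E14 groups overlap in reads and separate in distinct sequences, and the 2 SGET libraries lie far apart at 18 to 40 nt.

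C/D box snoRNA reads were far more abundant than H/ACA box snoRNA reads in all 10 libraries, counted over 98 Snord and 42 Snora genes. Of the 1507 annotated snoRNA genes, 1342 have Gm symbols and are in neither class by symbol. The ratio of summed Snord to Snora RPM was 16.2 to 24.5 in the 8 E14 and BG5 libraries, and 48.4 and 13.8 in SGET non-PGCLC replicates 1 and 2. In SGET the Snord levels of 8243 and 7969 RPM were close together, and the spread lay in Snora.

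The question whether single H/ACA box snoRNAs differ between cell types was tested on all short RNA genes together, with edgeR's quasi-likelihood test over 616 features, 27 of them Snora. For the mean mPGCLC effect over E14 and BG5, 0 of 27 Snora passed an adjusted p of 0.05, against 9.9% of all features. At an unadjusted p under 0.05 there were 3 (Snora52, Snora57 and Snora62, all higher in mPGCLC) against 21.9% of all features, and DESeq2 called 1, Snora52, against 21.8%. The common dispersion over the tested features, edgeR's measure of the squared relative spread between replicates, was 1.37. The median fitted log2 change was 1.29 for Snora and 0.25 for all features, with 17 of 27 Snora and 56.2% of all features above 0. Under DESeq2, 14 of the 27 were above 0.

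Snora52 (in the ribosomal protein gene Rplp2, chr7:141448803-141448939, plus strand) ranked 21 by level, and is described because of its values. It had 5.20 and 6.21 RPM in E14 mPGCLC against 0.404 and 0.0775 in E14 non-PGCLC, and 3.15 and 19.5 in BG5 mPGCLC against 0.106 and 0.208 in BG5 non-PGCLC. SGET non-PGCLC had 11.9 and 0.921 RPM. Within E14 and BG5 all mPGCLC libraries were above all non-PGCLC libraries, while SGET replicate 1 was above 3 of the 4 mPGCLC libraries. Pooled over replicates, 93 against 4 reads in E14 gave a 28.95-fold ratio of RPM (95% exact counting interval 10.9 to 108.5), and 225 against 4 reads in BG5 gave 72.8-fold (28.0 to 269.3). The fitted mean log2 change was 5.28 ± 1.91 (SE, edgeR adjusted p = 0.126), and the adjusted p was 0.00714 in DESeq2 and from that value to 0.685 over 19 alternatives. The log2 change itself ran from 4.19 without BG5 mPGCLC replicate 2, which held 199 of the 225 reads, to 9.50 with reads of 18 to 40 nt. In the higher libraries its reads were mostly 3′ fragments that differed between libraries, 140 reads of a 20-nt form in BG5 mPGCLC replicate 2 and 164 of the 27-nt form in capitals in SGET non-PGCLC replicate 1. All reads of the 4 E14 and BG5 non-PGCLC libraries were 43 nt long, mostly from nt 1 to 43, a read found in 9 libraries with 33 reads in all.
Snora52: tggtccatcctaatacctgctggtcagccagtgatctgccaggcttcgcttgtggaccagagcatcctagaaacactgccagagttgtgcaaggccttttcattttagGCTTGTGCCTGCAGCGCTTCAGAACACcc

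Snora62 overlapped between the cell types in E14 and lay apart in BG5. It had 31.2 and 14.04 RPM in E14 mPGCLC and 10.5 and 17.6 in E14 non-PGCLC, and 29.6 and 30.7 in BG5 mPGCLC against 1.27 and 0.0692 in BG5 non-PGCLC. SGET non-PGCLC ranged from 2.499 to 70.99 RPM. In BG5, 558 against 13 reads gave a 55.5-fold ratio (95% exact counting interval 32.2 to 104.9), and the fitted log2 change was 5.84 ± 2.05 (SE, edgeR adjusted p = 0.118). Over 19 alternatives its adjusted p ran from 0.00584, in DESeq2, to 0.326, and its log2 change from 4.87 to 8.40, without BG5 non-PGCLC replicate 2 and replicate 1. In E14 the log2 change was 0.32 ± 1.66 (SE, edgeR adjusted p = 1). The difference of the effects was 5.52 ± 2.51 (SE, edgeR adjusted p = 0.366).

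Snora57 had lower values in mPGCLC of E14 and higher values in mPGCLC of BG5, and passed edgeR's test in neither line. In E14 the mPGCLC libraries had 18.01 and 28.6 RPM and the non-PGCLC libraries 46.4 and 34.7, and in BG5 the values were 21.6 and 6.65 against 0 and 0.208. The replicates did not overlap in either line, and SGET non-PGCLC had 4.999 and 53.6 RPM. The BG5 mPGCLC replicates rested on different sequences. In replicate 1, 177 of 178 reads were an 18-nt sequence, nt 7 to 24, found in no other library. In replicate 2, 67 of 68 reads were the nt 122 to 148 fragment. The BG5 ratio of 246 against 3 reads was 106-fold (95% exact counting interval 35.9 to 517.8), and the fitted log2 changes were 6.77 ± 2.02 (SE, edgeR adjusted p = 0.0713) in BG5 and -1.10 ± 1.56 (SE, edgeR adjusted p = 0.954) in E14. In BG5 the adjusted p over 19 alternatives ran from 0.000858 in DESeq2 to 0.363 without reads found in other transcripts, and it was called in 3, which were DESeq2, no low-count filter, with 10.8% of all features called, and the fit without SGET non-PGCLC replicate 1, with 11.7%. With the 616 features of the full fit its adjusted p without that library was 0.0496, against 11.4% of all features called. The log2 change in E14 ran from -9.02 without reads found in other transcripts to -0.49 with reads of 20 nt or longer, and that in BG5 from 4.99 with reads of 20 nt or longer to 10.2 without BG5 non-PGCLC replicate 2. When reads shared with other annotated transcripts were left out, its mean effect over the lines turned from 2.84 to -1.11.

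Within E14, 0 of 27 Snora passed in edgeR, against 0.974% of all features, 0 had an unadjusted p under 0.05, against 9.25%, and DESeq2 called 0, against 7.95%. The replicates did not overlap for 5 that were higher in mPGCLC (Snora3, Snora52, Snora64, Snora65 and Snora68), against 26.8% of all features, and for 3 that were lower (Snora26, Snora57 and Snora70), against 14.1%. Snora65, whose human counterpart guides pseudouridines of the large ribosomal RNA, had 7.61 and 8.33 RPM in E14 mPGCLC and at most 0.978 RPM in the other 8 libraries, with a fitted log2 change of 6.86 ± 3.5 (SE, edgeR adjusted p = 0.618). Snora64 had 28.8 and 19.3 RPM in E14 mPGCLC against 0.404 and 6.59 in E14 non-PGCLC.

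Within BG5, 0 of 27 passed in edgeR, against 8.93% of all features. At an unadjusted p under 0.05 there were 2, Snora57 and Snora62, against 23.5%, and DESeq2 called 4 that were higher in mPGCLC, Snora16a, Snora52, Snora57 and Snora62, against 22.4%. The replicates did not overlap for 8 that were higher in mPGCLC (Snora16a, Snora26, Snora52, Snora57, Snora62, Snora64, Snora68 and Snora73a/Snora73b), against 28.7% of all features, and for 0 that were lower, against 22.9%. Snora16a had 32.2 and 2.93 RPM in BG5 mPGCLC and 0 and 0.139 in BG5 non-PGCLC, with an edgeR adjusted p of 0.257, and 0.0357 to 0.647 over 19 alternatives. Snora64 had 47.0 and 9.97 RPM in BG5 mPGCLC and 2.43 and 0 in BG5 non-PGCLC. Its mean effect over both lines was 3.58 ± 1.65 (SE, edgeR adjusted p = 0.246), and over 19 alternatives its adjusted p ran from 0.0448 to 0.531 and its log2 change from 2.51 to 6.93. It passed only when BG5 non-PGCLC replicate 1 was left out and the low-count filter was run again, with 12% of all features called, and with the 616 features of the full fit the adjusted p without that library was 0.0863. The median fitted log2 change in BG5 was 2.62 for Snora, 1.08 for Snord and 0.29 for all features. With genes at 0 in a group set to their floor of 3 reads, it was 2.83, 0.93 and 0.30. In E14 the fitted medians were 0.04, 0.12 and -0.06, and with the floor 0.30, 0.35 and 0.25.

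In both lines alike, 3 of 27 Snora (11.1%) were higher in mPGCLC without overlap, Snora52, Snora64 and Snora68, against 11.7% of all features, and 0 were lower, against 7.79%. The Snora share was thus near the background. Snora68 was the most evenly covered of them, with 29.6 and 17.8 RPM in E14 mPGCLC against 4.85 and 4.65 in E14 non-PGCLC, and 17.9 and 5.38 in BG5 mPGCLC against 3.39 and 3.95 in BG5 non-PGCLC. SGET non-PGCLC, at 11.3 and 15.3 RPM, lay within the range of the mPGCLC libraries. Its fitted mean log2 change was 1.84 ± 1.11 (SE, edgeR adjusted p = 0.364), with all alternatives between 0.202 and 0.944 and log2 changes from 1.43 to 3.18.

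**Figure D5:**
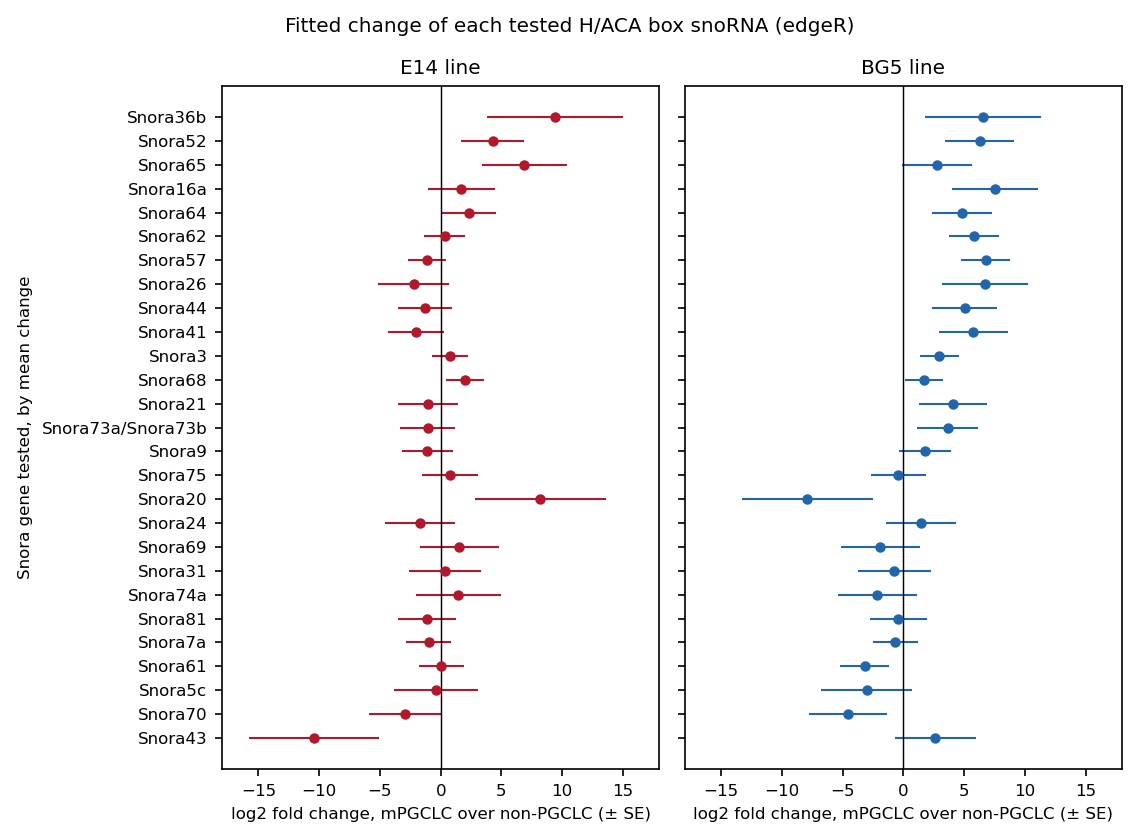
Fitted log2 fold change of mPGCLC over non-PGCLC (x axis, point, with a bar of 1 SE on each side) for each of the 27 Snora features tested (rows, by mean change), in E14 (left) and BG5 (right). The medians were 0.04 in E14 and 2.62 in BG5, with 14 and 17 features above 0, and 0 passed an adjusted p of 0.05 in either line.

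The difference of the line effects was tested in the same fit. Of 27 Snora 0 passed, against 4.06% of all features, and 1 had an unadjusted p under 0.05, Snora57, against 13.3%. Its BG5 effect exceeded its E14 effect by 7.87 ± 2.49 on the log2 scale (SE, edgeR adjusted p = 0.157). DESeq2 called Snora57, with an adjusted p of 0.00615, against 12% of all features, and the highest of 19 alternatives was 0.535, with differences from 5.48 to 15.8. The replicates lay apart in opposite directions for 2 of 27, Snora26 and Snora57, against 6.82% of all features.

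Among the non-PGCLC groups of E14, BG5 and SGET, 0 of 27 Snora passed in edgeR, against 17.9% of all features. At an unadjusted p under 0.05 there were 2, Snora44 and Snora57, against 30.4%, and DESeq2 called Snora41, Snora44 and Snora57, against 30.2%. Snora44 had 25.2 and 76.4 RPM in E14 non-PGCLC, 0.106 and 0.277 in BG5 non-PGCLC, and 3.402 and 0.102 in SGET non-PGCLC, with E14 above the others and the last 2 groups overlapping. Its edgeR adjusted p was 0.127, and over 18 alternatives it ran from 0.0174 without the low-count filter to 0.291, with a pass when BG5 mPGCLC replicate 1, BG5 mPGCLC replicate 2 or SGET non-PGCLC replicate 1 was left out. In these fits 19.6% of all features passed without the filter, and 17.4%, 17.4% and 22.6% without the libraries named, where the filter was run again and kept 707 to 729 features. With the 616 features of the full fit Snora44 did not pass in any of the 3 fits without a library, with adjusted p-values of 0.0654, 0.0632 and 0.0892. Snora41 had 38.8 and 3.64 RPM in non-PGCLC cells of E14, 0.106 and 0 in those of BG5, and 21.6 and 51.1 in those of SGET, lowest in BG5 without overlap (edgeR adjusted p = 0.181, 0.0453 to 0.394 over 18 alternatives). Snora57 had an edgeR adjusted p of 0.0645, and over 18 alternatives it ran from 0.00174 in DESeq2 to 0.336 without reads found in other transcripts. It passed in 4 of them, which were DESeq2, no low-count filter and leaving out SGET non-PGCLC replicate 1 or replicate 2, the last with 21.5% of all features called. With the 616 features of the full fit it passed without replicate 1, at 0.0380 against 20.3% of all features, and had 0.0558 without replicate 2.

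Single fragments, defined by their 5′ end, gave the same count in edgeR. Of 50 Snora 5′ ends among 2501 tested, 0 passed in edgeR for the mean mPGCLC effect, against 3.24% of all ends, and 4 had an unadjusted p under 0.05, against 12.4%. DESeq2 called 2, nt 122 of Snora57 and nt 1 of Snora64, both higher in mPGCLC, against 7.68%. For nt 122 of Snora57 the only reads in E14 and BG5 were the 67 of BG5 mPGCLC replicate 2, and SGET non-PGCLC replicate 2 had 522. In edgeR 0 Snora ends passed within E14, against 0.68% of all ends, within BG5, against 2.92%, for the difference of the lines, against 1.16%, and among the non-PGCLC groups, against 5.44%. At an unadjusted p under 0.05 there was 1 within E14, against 4.24%, 0 within BG5, against 8%, 2 for the difference of the lines, against 7.72%, and 0 among the non-PGCLC groups, against 12.7%. DESeq2 called 3 within E14, against 3.64%, 4 within BG5, against 8.4%, 3 for the difference of the lines (nt 2 of Snora44, nt 122 of Snora57 and nt 106 of Snora61), against 5.36%, and 0 among the non-PGCLC groups, against 8.04%. The calls at these 3 starts each rested on 1 library of a line. At nt 2 of Snora44 the reads were 396 in E14 non-PGCLC replicate 2 and 38 in BG5 mPGCLC replicate 2, with 0 in the other E14 and BG5 libraries. At nt 106 of Snora61 they were 138 in E14 mPGCLC replicate 1 and 493 in BG5 non-PGCLC replicate 2, again with 0 in the others. Both starts were thus called in opposite directions in the lines. The remaining calls had reads in both mPGCLC replicates, nt 1 of Snora64 in E14, with 203 and 136 against 3 and 0, and nt 2 of Snora62 in BG5, with 244 and 261 against 12 and 1.

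Related RNA genes and the other snoRNA class were tested in the same fits. The Scarna genes, Cajal body RNAs with C/D or H/ACA boxes that guide modification of spliceosomal RNAs, had 0 of 8 tested called in every comparison, and so had Terc, the telomerase RNA, which carries an H/ACA domain. Of 76 Snord tested, edgeR called 1 for the mean effect, Snord49a (log2 0.78 ± 0.20, SE, edgeR adjusted p = 0.0371), 0 within E14, 2 within BG5, 1 for the difference of the lines and 10 among the non-PGCLC groups. These are 1.32%, 0%, 2.63%, 1.32% and 13.2% of the Snord tested, against 9.9%, 0.974%, 8.93%, 4.06% and 17.9% of all features. Of 342 Mir genes tested, 59 were called for the mean effect. The summed Scarna level was 39.8 and 44.7 RPM in E14 mPGCLC, 49.3 and 35.04 in E14 non-PGCLC, 3.39 and 11.5 in BG5 mPGCLC, 29.7 and 17.9 in BG5 non-PGCLC, and 26.2 and 106 in SGET non-PGCLC.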

How the data were processed

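Small RNA of 10 libraries was measured. The deposited values are read counts from the authors' pipeline. Each file lists distinct read sequences with their number of reads. Per the submitters' notes and the study's methods, adapters were cut off with cutadapt 3.2 and then 4 random bases at either end, and reads from 15 nt up were mapped by STAR 2.5.3a to GRCm38. The random bases were not used to remove PCR copies. Reads were 15 to 43 nt long, where 43 nt is a read with no adapter found.

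Here, reads of at least 18 nt were matched exactly, in sense, to GENCODE vM21 short RNA transcripts, with Mir hairpins first, Snora next and other genes last. RPM is reads per 1000000 of all reads in the file. Of 616 features that passed filterByExpr, 27 were Snora, and the other 9 with reads were not tested. They were fitted with 5 group means in edgeR 4.0.16 (R 4.3.3) with TMM scaling (factors 0.775 to 1.22), the file total as library size and Benjamini-Hochberg adjustment over all features at 0.05. SE was derived from the log2 change and its F statistic. Intervals are exact, at 95%. The code was tested on simulated data.

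The members and gene lists were chosen with earlier results of these data known. Named were the 20 leading Snora features by mean RPM, called features, miRNA-like fragments, and Snora62, Snora63, Snora64, Snora65, Snora70, Snora73a, Snora73b and Snora74a whatever they showed. Snora52, Snora26 and the members in counts outside this rule were named after their values were seen. Alternatives were DESeq2 1.42.0, total-read scaling, no low-count filter, other read lengths, denominators and matching, only E14 and BG5, each library left out (with the filter run again, and with the features of the full fit), and the replicate number as a block. Depth was 7421061 to 14444567 reads.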

Additional observations from a re-analysis of the deposited data

Results flagged for a closer look

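The BG5 effect exceeded the E14 effect by 8.95 on the log2 scale for Snora26 and by 7.87 for Snora57. They stood out because in E14 both mPGCLC libraries were below both non-PGCLC libraries, while in BG5 both were above. The test of this difference did not pass for either (edgeR adjusted p = 0.402 for Snora26 and 0.157 for Snora57), and DESeq2 gave adjusted p-values of 0.180 and 0.00615. Over 19 alternatives each, the adjusted p ran from 0.180 to 1 for Snora26 and from 0.00615 to 0.535 for Snora57. Snora26, from the snoRNA host gene Dancr, had 1.57 and 0.870 RPM in E14 mPGCLC against 4.72 and 4.50 in E14 non-PGCLC, and 1.45 and 7.63 in BG5 mPGCLC against 0 and 0.0692 in BG5 non-PGCLC. The BG5 non-PGCLC libraries held 0 and 1 reads of it, and over the alternatives its difference ran from 6.915 to 11.69. Opposite, non-overlapping replicates were found in 6.82% of all 616 features.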

How the results depend on the processing

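Of 62 alternatives other than leaving out a library, 46 gave the same result and 16 moved it. DESeq2 called 1 Snora for the mean effect, against 21.8% of all features, 4 within BG5, against 22.4%, and 1 for the difference of the lines, against 12%. It also called 3 among the non-PGCLC groups, against 30.2%, and 2 for the mean effect on 5′ ends, against 7.68% of all ends. In edgeR each of these counts was 0. For the 5′ ends DESeq2 called 3 within E14, against 3.64% of all ends, 4 within BG5, against 8.4%, and 3 for the difference of the lines, against 5.36%. There too edgeR called 0. Without the low-count filter edgeR called 1 within BG5 (Snora57), against 10.8% of 863 features, and 2 among the non-PGCLC groups (Snora44 and Snora57), against 19.6%. The summed mPGCLC minus non-PGCLC difference was 0.0254 RPM in E14 and 77.2 RPM in BG5. With Snora reads of 18 nt or longer over a denominator of reads of 20 nt or longer, which does not hold the 18 to 19-nt reads, it was -162.7 in E14 and 299.7 in BG5. With both from 20 nt up, added after seeing the data, it was -138.6 and 167.8, and with each distinct sequence counted 1 time, per 1000000 distinct sequences, 281.5 and 193.9. In BG5 it was 5.43 with 43-nt reads only, 29.3 with reads of 20 nt or longer and 113.8 with up to 2 mismatches. The cause of these shifts was not tested.

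Leaving out each of the 10 libraries in turn gave 0 to 1 calls for the mean effect (Snora64 without BG5 non-PGCLC replicate 1, against 12% of all features), 0 to 0 within E14, 0 to 1 within BG5 (Snora57 without SGET non-PGCLC replicate 1, against 11.7%), 0 to 0 for the difference of the lines, 0 to 2 among the non-PGCLC groups, against 17.4% to 22.6% in the fits with a call, and 0 to 0 for the mean effect on 5′ ends. The low-count filter was run again in these fits and kept 707 to 729 features, 29 to 31 of them Snora, and 157 to 177 Snora 5′ ends, so filter and libraries changed together. With the 616 features and 2501 5′ ends of the full fit, added after seeing the data, there were 0 to 0 calls except 0 to 1 within BG5 and 0 to 1 among the non-PGCLC groups, in both Snora57 without SGET non-PGCLC replicate 1. In all these fits a group left with 1 library was assumed to vary like the other groups. The summed difference ranged from -38.66 to 38.71 RPM in E14 and from 64.1 to 90.3 RPM in BG5. With the replicate number as a block, 0 Snora features were called in each comparison and 0 Snora 5′ ends for the mean effect. The share of all features called in these blocked fits is not given here, so the counts cannot be set against it. Same-numbered libraries did not deviate together (correlations of -0.0647 to 0.0763 over 694 features). The spread between replicates was wide, so this check cannot decide whether the numbers pair the libraries.

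With DESeq2, which changes the scaling and the model together, the median log2 change of all features fell by 0.29 for the mean effect, 0.14 in E14, 0.29 in BG5 and 0.34 for the difference of the lines. Total-read scaling shifted it by 0.08, 0.19, -0.16 and -0.51. Depth limited the lower members, since 3 reads in a library corresponded to 0.208 to 0.404 RPM.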
